A study of Dicentrarchus labrax with 10 samples.

Results

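Transcripts of heat shock cognates, hsp90 beta, hsp10 and a pair of cofactors were followed through the gonads of juvenile European sea bass (Dicentrarchus labrax) that had been reared warm or cool as larvae. The array carried 17 probes for these 6 sequences, out of 24200 probes with 11705 sequence identifiers in all. The members were taken by name, with earlier results of these data known: 6 listed probes and every other probe of the same sequence. The listed probes were CUST_2420_PI416070213 for heat shock cognate 70 (hsc70, sequence SeabassC-CL1586Contig1), CUST_17674_PI416070213 for heat shock cognate 71 (hsc71, cDN31P0001P19.F.ab1) and CUST_18040_PI416070213 for heat shock protein 90 beta (hsp90 beta, cDN31P0004B10.F.ab1). The others were CUST_6344_PI416070213 for heat shock protein 10 (hsp10, SeabassC-CL4161Contig1), CUST_5653_PI416070213 for heat shock protein 70 binding protein (SeabassC-CL3704Contig1) and CUST_7478_PI416070213 for heat shock factor binding protein 1 (SeabassC-CL613Contig2). Each sequence had 3 probes except heat shock factor binding protein 1, which had 2, and each probe was printed as 2 spots. The suffix of the probe names is left out from here on. The gene names are those of the study's annotation, since the array files give only identifiers.

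Heat shock cognates of the Hsp70 family are chaperones that cells make without stress, and they bind unfolded stretches of new or damaged proteins. Hsp70 binding protein belongs to the cofactors that work with Hsp70, while heat shock factor binding protein 1 is known in mammals to bind heat shock factor 1, the transcription factor that switches on heat-inducible chaperones, and to restrain it. Hsp90 beta is the Hsp90 form that mammalian cells make constantly, and it keeps client proteins such as kinases and steroid hormone receptors in a fold that can be activated. Hsp10 closes the hsp60 chamber of mitochondria, in which imported proteins fold.

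The HT group was reared at 21 °C and the LT group at 15 °C between 20 and 60 days post hatch (dph), each after a start at 17 °C and each in a single tank. From 60 dph the LT water was brought to the temperature of the HT water. Gonads of 5 HT and 5 LT fish were taken at 170 dph, 110 days after the exposure ended, from fish that the study had picked as putative females for their high transcript level of cyp19a1a, the gonadal aromatase. A custom Agilent array was used per fish, with 1 dye and no pooling of RNA. Tank and temperature cannot be told apart, and neither can position and temperature, since each of the 5 slides carried its HT array at position 2 and its LT array at position 1. The p-values compare fish between tanks. In whole gonads, fewer cells of a type and less RNA per cell cannot be told apart.

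Levels are log2 intensities after background correction and quantile normalization, a scale on which 1 unit is a 2-fold difference, and they compare fish for a given probe, not probes with each other. Median foreground intensities of the arrays were 95 to 234.5 in the HT group and 130 to 219.5 in the LT group, over background medians of 18 to 21, and 69.3% to 90.8% of the probes on HT arrays and 78.1% to 86.4% on LT arrays were well above background. All 17 probes were well above background in all 10 fish. The number of arrays limits the precision. HT replicate 1 stood apart from the other fish, with a mean correlation with the other arrays of 0.843, against 0.920 to 0.947 for the other 9 fish. The study left out 1 HT fish as an outlier. HT replicate 1 was taken to be that fish, since the study's heatmap shows the other 9, and the members are compared over 9 fish without it and over all 10. HT replicate 4 had the next lowest mean correlation, 0.920. The gonads also differed in anti-Müllerian hormone (CUST_20078), a hormone of the testis pathway. Its log2 intensity was 7.25 in HT replicate 1 and 12.27 to 13.59 in the other HT fish, against 13.39 in LT replicate 2 and 7.93 to 9.32 in the other LT fish.

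Over 9 fish, hsp10 was the member with the lowest p-values, and it was lower in HT gonads. None of the 17 probes was called, nor was any of the 24200 probes (0% called), at the study's threshold of an adjusted p below 0.05 from limma over all probes, a fold change above 1.2 and reliable spots in every fish. The hsc70 probes could not meet the last condition, since their spots in LT replicate 1 were flagged. Without that condition 0 probes were called, over 9 fish and over 10. The study itself reported genes called in both directions at its threshold, none of them a member, and its calls were not recovered here. Its own list of heat shock genes, which names hsp10, hsp90 beta and both cofactors, ran in both directions with no adjusted p below 0.05. Its decrease of hsp10 was nearer the 10-fish value here than the 9-fish value. The study's discussion describes heat shock proteins as downregulated. At an unadjusted limma p below 0.05, 2 of the 17 probes were lower in HT gonads, both of hsp10, against a background of 7.61% of all probes. 1 of the 17 was higher, a probe of hsp90 beta, against a background of 10.8%. In direction alone, 11 of the 17 probes were lower and 6 higher, with a median log2 fold change of -0.18 (HT minus LT), against a median of 0.00 over all probes. Of all probes 49.6% were lower. Probes of a sequence share their transcript, and of the 6 listed probes 4 were lower and 2 higher. Over all 10 fish, 8 of the 17 were lower and 9 higher with a median of 0.05, against 0.01 over all probes. None was called, nor was any probe of the array (0% called). The same hsp90 beta probe was then the only 1 of the 17 at an unadjusted p below 0.05, against 4.12% of all probes that were higher at that level.

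**Figure D1:**
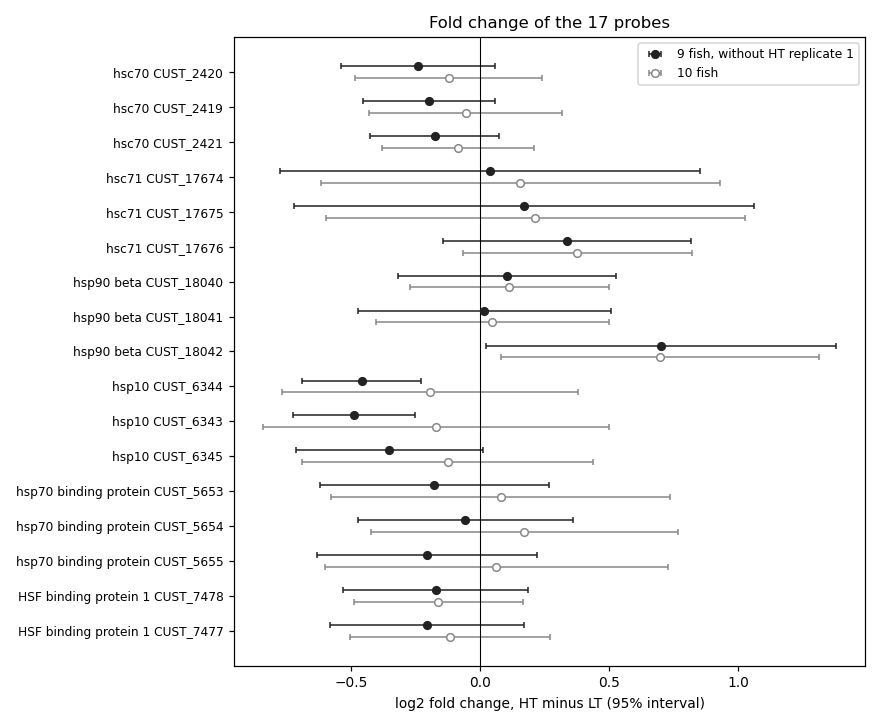
Log2 fold change, HT minus LT, of the 17 probes (rows, grouped by sequence) with the 95% interval from limma, over 9 fish without HT replicate 1 (filled points) and over 10 fish (open points). The intervals of 2 hsp10 probes lay below 0 over 9 fish and spanned 0 over 10 fish, and that of the hsp90 beta probe CUST_18042 lay above 0 in both.

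All spots of hsc70 were so bright that the scanner took them from its low-gain reading, with none saturated. Its listed probe CUST_2420 read 17.13, 16.65, 16.77, 16.16 and 16.56 in HT replicates 1 to 5, against 16.66, 16.86, 16.93, 16.66 and 16.76 in LT replicates 1 to 5. The highest of the 10 fish was HT replicate 1 and the lowest HT replicate 4, and the 5 LT fish lay between them. Over 9 fish it averaged 16.53 ± 0.27 (SD, n = 4) in HT and 16.78 ± 0.12 (SD, n = 5) in LT gonads, and the log2 fold change was -0.24 with a standard error of 0.13 (limma, adjusted p = 0.356). A two-sided exact permutation test over these fish gave p = 0.103. Over 10 fish the log2 fold change was -0.12 (95% interval -0.49 to 0.24, adjusted p = 0.965 from limma). The other hsc70 probes, CUST_2419 and CUST_2421, had log2 fold changes of -0.20 and -0.18 over 9 fish and of -0.06 and -0.09 over 10 fish, and HT replicate 1 was the highest fish and HT replicate 4 the lowest for both. Both spots of each hsc70 probe carried an outlier flag of the scanner software in HT replicate 1 and in LT replicate 1, so the hsc70 probes counted as reliable in 8 of 10 fish, whereas the 14 other probes had no flagged spot. The sign of the hsc70 difference depended on scaling. When processed signals were divided by the 75th percentile of their array, whose median over all probes came to 0.30 with 9 fish, CUST_2420 stood at 0.39, which is 0.09 above that median. With the same scaling after background correction it was 0.318 below the median of all probes, and with cyclic loess 0.118 below, the same side as in the reported fit, where it was 0.243 below.

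Hsc71 varied more between fish than hsc70. Its listed probe CUST_17674 read 13.39, 12.81, 13.08, 11.84 and 13.51 in HT replicates 1 to 5, against 13.04, 13.37, 12.59, 11.98 and 12.87 in LT replicates 1 to 5. Each group thus held 1 fish near 12 log2 units, HT replicate 4 and LT replicate 4, and the ranges of the groups coincided almost fully. The log2 fold change over 9 fish was 0.04 (95% interval -0.78 to 0.85, adjusted p = 0.968 from limma), and over 10 fish it was 0.15 (adjusted p = 0.993 from limma). The direction over 9 fish turned without any 1 of 4 fish (HT replicates 3 and 5, LT replicates 3 and 4), to as low as -0.20. CUST_17675 had log2 fold changes of 0.17 over 9 fish and 0.21 over 10 fish. The third probe, CUST_17676, read 12.80, 12.47, 12.70, 12.37 and 12.90 in HT fish, against 12.34, 12.89, 12.06, 12.30 and 11.77 in LT fish. All 5 HT fish were thus above 4 of the LT fish, with LT replicate 2 as the exception. Its log2 fold change was 0.34 over 9 fish (adjusted p = 0.422 from limma) and 0.38 over 10 fish (adjusted p = 0.747 from limma).

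Hsp70 binding protein had the widest range over HT gonads of the 6 listed probes. CUST_5653 read 12.64, 11.57, 11.46, 10.80 and 11.58 in HT replicates 1 to 5, against 11.93, 11.48, 11.19, 11.63 and 11.43 in LT replicates 1 to 5. The highest and the lowest of the 10 fish were both HT fish, replicate 1 and replicate 4, while the other 3 HT fish lay inside the LT range. At its highest, in HT replicate 1, it was 1.29 log2 units above the mean of the other 4 HT fish. The log2 fold change was -0.18 over 9 fish (standard error 0.20, adjusted p = 0.658 from limma) and 0.08 over 10 fish (adjusted p = 0.995 from limma), so that the sign turned with this fish. CUST_5654 and CUST_5655 also turned, with -0.06 and -0.21 over 9 fish and 0.17 and 0.06 over 10 fish. For all 3 probes HT replicate 1 was the highest fish and HT replicate 4 the lowest.

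Heat shock factor binding protein 1 varied less between fish than hsp70 binding protein. CUST_7478 read 11.76, 11.81, 11.72, 11.26 and 12.05 in HT replicates 1 to 5, against 11.94, 11.85, 11.74, 11.75 and 12.13 in LT replicates 1 to 5. Within each of the 5 slides the HT fish was the lower, by 0.026 to 0.493 log2 units, with slide 4 the widest and the other differences at 0.176 or less, and 4.37% of all probes were lower in HT on all 5 slides. The other probe of the sequence, CUST_7477, was lower on 4 slides and higher on slide 3, by 0.028. The log2 fold change was -0.17 over 9 fish (95% interval -0.53 to 0.18, adjusted p = 0.585 from limma) and -0.16 over 10 fish (adjusted p = 0.902 from limma). Here HT replicate 1, at 11.76, lay within the range of the other HT fish. CUST_7477 had log2 fold changes of -0.21 and -0.12 over 9 and 10 fish.

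Hsp90 beta gave a different picture by probe. The listed probe CUST_18040 read 13.34, 13.44, 13.57, 12.80 and 13.33 in HT replicates 1 to 5, against 13.17, 13.35, 13.56, 12.97 and 12.88 in LT replicates 1 to 5, and the groups overlapped over nearly all of their range. Its log2 fold change was 0.10 over 9 fish (95% interval -0.32 to 0.52, adjusted p = 0.805 from limma) and 0.11 over 10 fish. CUST_18041 was at 0.01 over 9 fish and 0.05 over 10 fish. CUST_18042, by contrast, read 11.12, 11.48, 11.24, 10.84 and 11.05 in HT fish, against 10.33, 11.42, 10.49, 10.34 and 9.68 in LT fish. Every HT fish was above 4 of the 5 LT fish, and LT replicate 2 lay among the HT fish. The log2 fold change of CUST_18042 was 0.70 over 9 fish (standard error 0.30, unadjusted p = 0.0446 and adjusted p = 0.260 from limma) and 0.70 over 10 fish (adjusted p = 0.681 from limma). The two-sided exact permutation p was 0.0794 over 9 fish and 0.0476 over 10 fish, where the smallest possible p is 0.00794 in both designs. Its HT fish exceeded the LT fish of the same slide on all 5 slides, by 0.063 to 1.374 log2 units, as did 5.8% of all probes. LT replicate 2 was also the only LT fish with an anti-Müllerian hormone level in the range of HT replicates 2 to 5, whereas HT replicate 1 was high in CUST_18042 and low in that hormone. Whether the hormone's level has a part in the CUST_18042 difference was not tested.

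Hsp10 separated the groups once HT replicate 1 was set aside. CUST_6344 read 13.76, 12.56, 12.35, 12.29 and 12.55 in HT replicates 1 to 5, against 12.93, 12.90, 13.10, 12.80 and 12.76 in LT replicates 1 to 5. HT replicates 2 to 5 were below all 5 LT fish, and HT replicate 1 was above all of them, 1.32 log2 units over the mean of the other HT fish. Over 9 fish the level averaged 12.44 ± 0.14 (SD, n = 4) in HT and 12.90 ± 0.13 (SD, n = 5) in LT gonads. The log2 fold change was -0.46 (standard error 0.10, 95% interval -0.69 to -0.23), a level in HT gonads 0.727 times that in LT gonads. Its unadjusted p was 0.00135 and its adjusted p 0.130 from limma, and the two-sided exact permutation p was 0.00794, the smallest that 4 against 5 fish can give. Over 10 fish the log2 fold change was -0.20 (95% interval -0.77 to 0.38, adjusted p = 0.962 from limma).

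CUST_6343 also had non-overlapping groups over 9 fish, with HT fish at 12.02 to 12.42 against LT fish at 12.58 to 12.90, and 13.81 in HT replicate 1. Over 9 fish its log2 fold change came to -0.49, with a standard error of 0.10 (limma, adjusted p = 0.122), and over 10 fish it was -0.17. The third hsp10 probe, CUST_6345, read 13.24, 12.17, 11.86, 11.82 and 12.56 in HT fish, against 12.32, 12.58, 12.67, 12.31 and 12.41 in LT fish, so that HT replicate 5 lay within the LT range. Its log2 fold change over 9 fish stood at -0.35 (limma, adjusted p = 0.282), and over 10 fish at -0.13. Of the 17 probes, the groups did not overlap over 9 fish for these 2 hsp10 probes, with HT below LT in both, and 2.91% of all probes on the array did so in that direction. Within slides, CUST_6344 was lower in the HT fish of slides 2 to 5, with differences of -0.335, -0.75, -0.511 and -0.213, and higher on slide 1, at 0.83, which carried HT replicate 1. On every scaling tried, and with each fish left out, the 3 hsp10 probes stayed lower in HT gonads over 9 fish. Scaling by the 75th percentile after background correction gave the widest distance for CUST_6344, 1.06 below the median of all probes, and there that median itself was at 0.40.

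**Figure D2:**
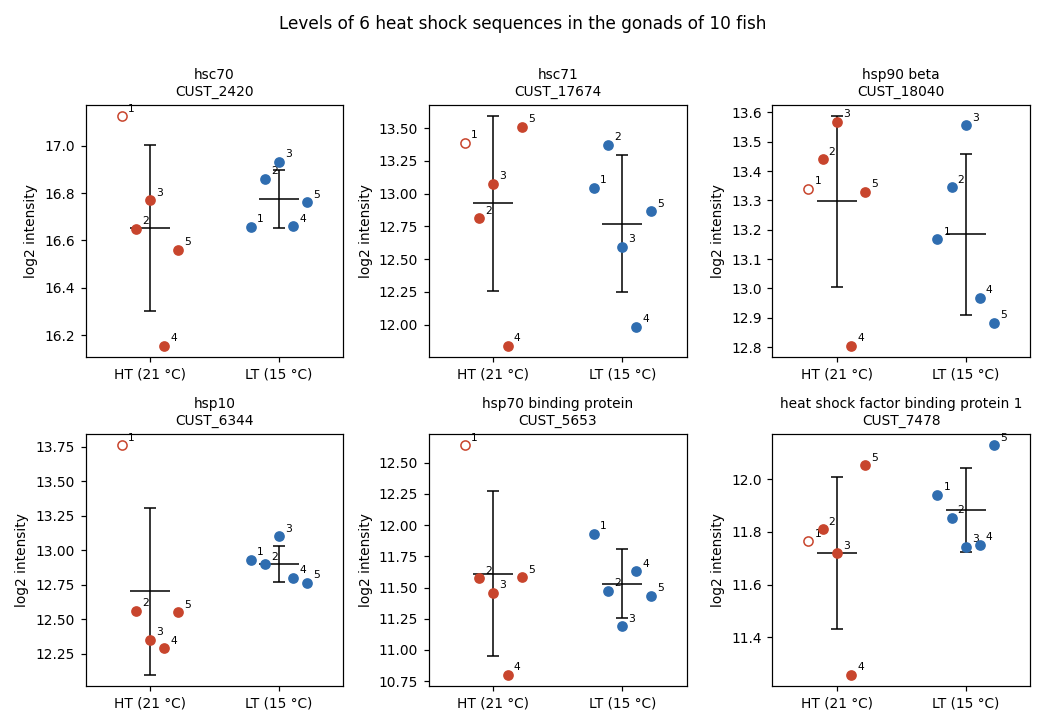
Log2 intensity of the 6 listed probes in each fish, with HT fish on the left and LT fish on the right of each panel. Numbers give the replicate, the open circle is HT replicate 1, and bars are mean ± SD of 5 fish. For hsp10, HT replicates 2 to 5 at 12.29 to 12.56 lay below the LT fish at 12.76 to 13.10, with HT replicate 1 above at 13.76.

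When arrays were weighted by their quality in the limma fit, 3 of the 17 probes passed the threshold over 9 fish, against 12.6% of all probes. They were CUST_6344 and CUST_6343 of hsp10, at -0.48 (adjusted p = 0.0199 from limma) and -0.50 (adjusted p = 0.0140 from limma), and CUST_18042 of hsp90 beta, at 0.89 (adjusted p = 0.0459 from limma). Over all 10 fish the 3 passed as well, against 8.38% of all probes. There hsp10 was at -0.45 (CUST_6344) and -0.47 (CUST_6343), with adjusted p = 0.0402 and 0.0393 from limma, and CUST_18042 was at 0.88 (adjusted p = 0.0487 from limma). The weights of the fit over 10 fish ran from 0.119 for HT replicate 1 and 0.422 for HT replicate 4 to 5.93 for HT replicate 3. The weighted values over 10 fish thus lean on HT replicate 3 and on HT replicate 2, at 2.62. The weights over 9 fish were estimated separately and are not given here. In no other alternative did a member pass.

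The extremes of the members fell on a few fish. HT replicate 4 was the lowest of the 10 fish for all 6 listed probes and for 13 of the 17 probes, against 19.1% of all probes on the array. The highest was HT replicate 1 for 3 of the 6 listed probes, those of hsc70, hsp10 and hsp70 binding protein, and for 9 of the 17, against 26.9% of all probes. Probes of a sequence share their transcript, so that these counts rest on 6 sequences. The hsc70 readings of HT replicate 1 came from flagged spots alone. Median foreground intensities were 143 in HT replicate 4 and 171 in HT replicate 1, inside the range of the LT arrays. The share of probes well above background was 73.67% in HT replicate 1, below the 78.07% to 86.45% of LT arrays, and 87.99% in HT replicate 4. HT replicate 5 had the lowest share of the 10 arrays, 69.26%, and the lowest median foreground, 95. It was the highest fish for 3 of the 17 probes and the lowest for 0. Whether array quality has a part in these extremes was not tested.

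The agreement of the probes differed between sequences. Of 16 pairs of probes with the same sequence, 12 correlated over the 10 fish with an adjusted p below 0.05 (permutation test, 100000 resamples, Benjamini-Hochberg over the 16 pairs), and Pearson's r had a median of 0.915. Over the whole array the median r was 0.878 for 18381 pairs from the 6127 sequences with 3 probes. The probes of hsp70 binding protein were the closest, with r between 0.972 and 0.994. Those of hsp10 were at 0.919 to 0.990, those of hsc70 at 0.868 to 0.919, and the pair of heat shock factor binding protein 1 at 0.754. The 12 pairs that passed also passed without HT replicate 1.

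The 4 pairs that did not pass all held CUST_17676 of hsc71 or CUST_18042 of hsp90 beta. CUST_17674 and CUST_17675 of hsc71 followed each other at r = 0.966 (rho = 0.915, adjusted permutation p = 0.000128 for r and 0.00208 for rho). CUST_17676 correlated with them at r = 0.554 and 0.570 (rho = 0.733 and 0.745, adjusted permutation p = 0.104 and 0.0965 for r, and 0.0240 and 0.0224 for rho), and was not low in HT replicate 4 or LT replicate 4, where the other hsc71 probes were. Its lowest fish was LT replicate 5, which the other 2 probes did not have among their lowest. CUST_18040 and CUST_18041 of hsp90 beta correlated at r = 0.843 (rho = 0.818, adjusted permutation p = 0.00204 for r), while CUST_18042 correlated with them at r = 0.596 and 0.541 (rho = 0.636 and 0.539, adjusted permutation p = 0.0846 and 0.104 for r).

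A comparison chosen after seeing the data set the readings of 2 probes within a fish against each other and compared the groups. CUST_18041 was above CUST_18042 by 0.66 ± 0.28 log2 units in HT fish and by 1.31 ± 0.44 in LT fish (SD, n = 5 each), a difference between groups of -0.65 (two-sided exact permutation p = 0.0317, adjusted p = 0.444 over the 16 pairs). The same comparison of CUST_18040 with CUST_18042 gave -0.58 (two-sided exact permutation p = 0.0556, adjusted p = 0.444). For none of the 16 pairs did the difference between groups pass after adjustment. The smallest p that 5 against 5 fish can give is 0.00794, and adjusted over 16 pairs the pairs of CUST_18042 could not have passed by themselves. The adjusted test therefore cannot decide whether the hsp90 beta probes disagree about temperature.

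**Figure D3:**
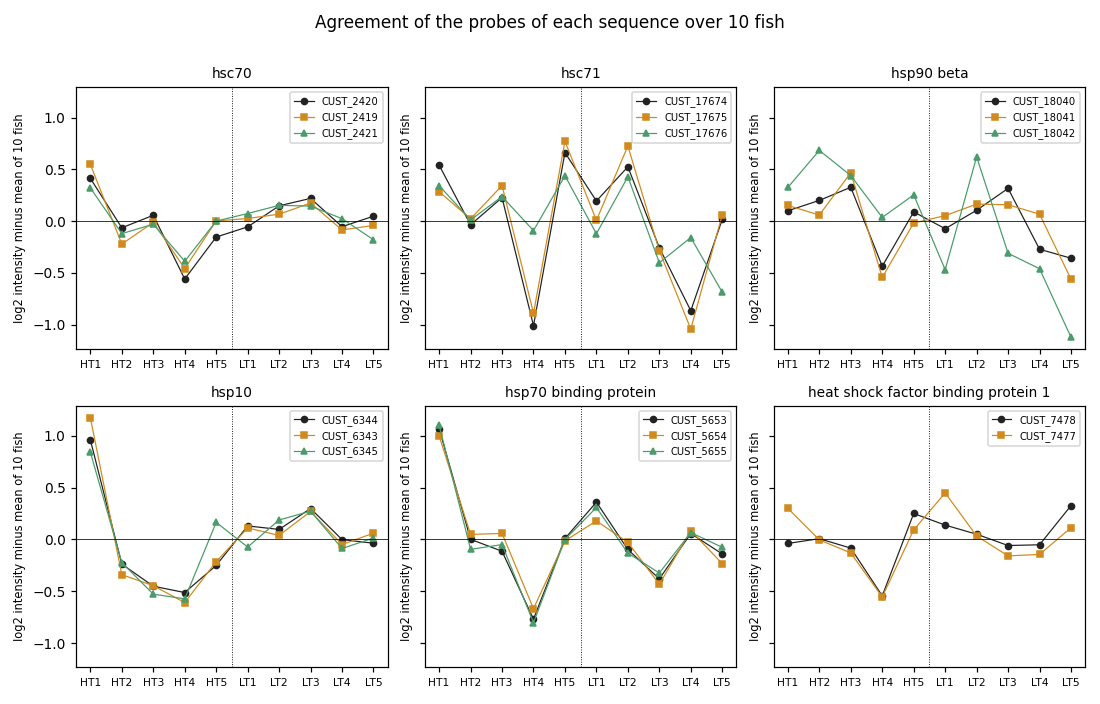
Log2 intensity of each probe minus its mean over the 10 fish, by fish (HT left of the dotted line, LT right), with 1 panel for each sequence and 1 line for each probe. The lines of hsp70 binding protein and hsp10 run together, while CUST_18042 of hsp90 beta runs apart from the other probes in fish of both groups, and CUST_17676 of hsc71 does so in HT replicate 4 and LT replicates 4 and 5.

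The readings of the 2 spots of a probe on one array had a standard deviation of 0.064 (CUST_5655) to 0.568 (CUST_7477), beside a median of 0.152 over the 18825 probes of the array with 2 spots. The standard deviation between fish of a group was 0.204 to 0.629, and it was above that between spots for 11 of the 17 probes. The others were CUST_2419, CUST_2421, CUST_17676, CUST_18040, CUST_18041 and CUST_7477. The value between spots is that of a single spot and the value between fish that of the mean of 2 spots. The former also counts any steady difference between the 2 spots, which would not change differences between fish. The comparison is therefore a rough one. The widest gap between 2 spots lay in LT replicate 5 for 10 of the 17 probes and reached 1.52 log2 units for CUST_18041. LT replicate 5 was also the lowest fish for both CUST_18041, at 11.23, and CUST_18042, at 9.68, for which the spots of that fish differed by 1.33 log2 units. Without LT replicate 5 the log2 fold change of CUST_18042 was the lowest of those with 1 fish left out, 0.51 over 9 fish and 0.50 over 10.

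The members varied together loosely, and no pair of them passed after adjustment. All 15 pairs of the 6 listed probes had a Pearson's r above 0 over the 10 fish, from 0.179 to 0.797 with a median of 0.571. Each listed probe was also correlated with all probes of other sequences on the array. There the median r was -0.093 (hsp70 binding protein) to 0.01 (heat shock factor binding protein 1). The upper quartiles were 0.204 (hsp90 beta) to 0.506 (hsp70 binding protein). In 4 of the 15 member pairs the permutation p was below 0.05 before adjustment and in none after it (two-sided, 100000 resamples, Benjamini-Hochberg over the 15 pairs). Hsc70 and hsp10 were the closest at r = 0.797 (permutation p = 0.0111, adjusted 0.145) and rho = 0.721 (permutation p = 0.0225, adjusted 0.338). They were followed by hsp10 and hsp70 binding protein at r = 0.766 (permutation p = 0.0193, adjusted 0.145) and rho = 0.479 (permutation p = 0.166, adjusted 0.499). The hsc70 readings of HT replicate 1 and LT replicate 1 came from flagged spots alone. The r of hsc70 with hsp10 turned to -0.278 on processed signals scaled by the 75th percentile, and to -0.189 with that scaling after background correction.

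HT replicates 1 and 4 were the fish farthest from the median of the first measure in both pairs. Without them r was 0.511 for hsc70 with hsp10 (exact permutation p = 0.194). For hsp10 with hsp70 binding protein it was -0.11, so that this relation rested on those 2 fish. The same held for hsc70 with hsp70 binding protein, at r = 0.668 (permutation p = 0.0465, adjusted 0.162; rho = 0.127, permutation p = 0.731, adjusted 0.844) over 10 fish and -0.716 without them. Hsc71 with heat shock factor binding protein 1 had r = 0.655 (permutation p = 0.0387, adjusted 0.162) and rho = 0.515 (permutation p = 0.135, adjusted 0.499), and 0.179 without HT replicate 4 and LT replicate 4. The farthest fish differed by pair: HT replicates 1 and 4 in 8 pairs, HT replicate 4 with LT replicate 4 in 4 pairs, and HT replicate 4 with LT replicate 5 in 3 pairs. With them left out, 6 of the 15 pairs had an r above 0 and the median was -0.06. Without HT replicate 1 alone all 15 were above 0, with a median of 0.498 and adjusted exact permutation p-values from 0.201 to 0.675. As deviations from the means of their group, the lowest adjusted exact permutation p over the 15 pairs was 0.250.

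**Figure D4:**
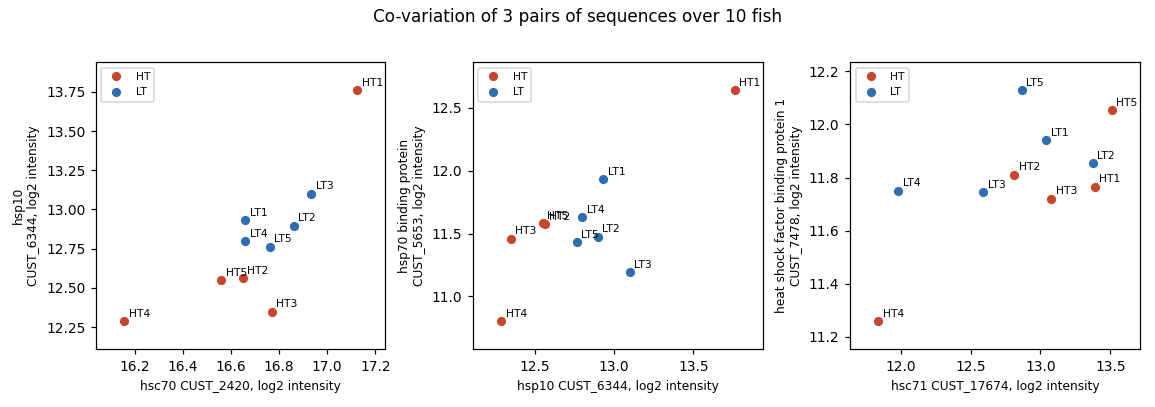
Log2 intensities of 3 pairs of listed probes in the 10 fish (HT in red, LT in blue, labelled by replicate): hsc70 with hsp10, hsp10 with hsp70 binding protein, and hsc71 with heat shock factor binding protein 1. HT replicates 1 and 4 sit at opposite corners of the first pair of panels, and without them r was 0.511 and -0.11.

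The probes of hsp10 and hsp70 binding protein followed many other transcripts over the 10 fish, that of hsp90 beta few. For hsp90 beta CUST_18040 the standard deviation between spots, 0.445, was above that over the 10 fish, 0.273. The 2 values were 0.156 and 0.425 for hsp10 CUST_6344, and 0.373 and 0.478 for CUST_5653 of hsp70 binding protein. The value between spots also counts any steady difference between the 2 spots, which was not separated from noise. Whether spot noise has a part in the low shares of hsp90 beta was not tested. Of the 24197 probes of other sequences, 15.3% correlated with hsp10 at an r above 0.7 and 12.2% at an r below -0.7, and the shares were 17.3% and 11.5% for hsp70 binding protein. For hsp90 beta (CUST_18040) they were 0.926% and 1.57%, for hsc70 4.66% and 6.08%, and for hsc71 3.34% and 3.57%. For heat shock factor binding protein 1, over 24198 probes, they were 2.26% and 5.46%. HT replicate 1 was the highest fish for 26.9% and the lowest for 27.5% of all probes, and the shares without it were not computed. Among 170 described sequences, the 2 most like hsp10 were the gamma subunit of mitochondrial ATP synthase (r = 0.955, and 0.906 without HT replicate 1) and the gamma isoform of NAD+ isocitrate dehydrogenase 3, an enzyme of the citric acid cycle (r = 0.943, and 0.836 without it). Both enzymes work inside mitochondria, as hsp10 does, and the third, btf3l4, followed at r = 0.903. These enzymes were also among the most like hsc70, at 0.863 for the isocitrate dehydrogenase and 0.827 for the ATP synthase subunit, with the pyruvate dehydrogenase beta subunit at 0.844. Hsp70 binding protein was most like heterogeneous nuclear ribonucleoprotein G (r = 0.967), manganese superoxide dismutase, the antioxidant enzyme of mitochondria (0.960), and the splicing factor arginine/serine-rich 3 (0.956). A proteasome subunit, beta type 5, was the most like hsc71 (0.778) and the second most like heat shock factor binding protein 1 (0.712), after a subunit of an N-acetylglucosamine transferase (0.777). Hsp90 beta was most like dihydropyrimidine dehydrogenase (0.823). These sequences were picked for their r, which is a description over 10 fish that share the extremes of HT replicates 1 and 4.

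The mitochondrial sequences did not all follow hsp10. Of 19 described mitochondrial sequences, 15 were well above background in all 10 fish. Over 9 fish 16 of the 19 were lower and 3 higher in HT gonads, with a median log2 fold change of -0.07. Of all probes 49.6% were lower, with a median of 0.00. At an unadjusted limma p below 0.05, 3 of the 19 were lower, against the 7.61% of all probes. Over 10 fish 16 were lower and 3 higher, none at an unadjusted limma p below 0.05 in either direction, where 2.96% of all probes were lower and 4.12% higher at that level. The 3 over 9 fish were the ATP synthase gamma subunit at -0.48 (adjusted p = 0.193 from limma), the isocitrate dehydrogenase gamma isoform at -0.32 (adjusted p = 0.195 from limma) and the pyruvate dehydrogenase beta subunit at -0.28 (adjusted p = 0.238 from limma). The ATP synthase gamma subunit (CUST_9200) read 13.54, 12.25, 12.09, 11.81 and 12.52 in HT replicates 1 to 5, against 12.71, 12.55, 12.96, 12.36 and 12.67 in LT replicates 1 to 5. Like hsp10 it was highest in HT replicate 1, and over 10 fish its log2 fold change was -0.21, with -0.07 for the isocitrate dehydrogenase and -0.18 for the pyruvate dehydrogenase. That fish was the highest of the 10 for 6 of the 19 mitochondrial sequences and the lowest for 8, against 26.9% and 27.5% of all probes. The 8 included sequences of the mitochondrial genome, such as cytochrome b (CUST_7658) at 16.27 in HT replicate 1, against 16.90 to 17.21 in the other HT fish and 16.78 to 17.31 in LT fish. The cytochrome b probe counted as reliable in 8 of the 10 fish. The lowest in HT replicate 1 also included products of nuclear genes, such as subunits Vb and VIb of cytochrome c oxidase.

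Other protein folding and breakdown genes gave small counts. Of 7 folding sequences outside the members, 5 were well above background in all 10 fish. Over 9 fish 5 of the 7 were lower and 2 higher in HT gonads, with a median of -0.11, where 49.6% of all probes were lower. 1 of the 7 was higher at an unadjusted limma p below 0.05, against 10.8% of all probes: hsp47 (CUST_3016), the collagen chaperone, at 0.75 (adjusted p = 0.247 from limma), and at 0.35 over 10 fish (adjusted p = 0.966 from limma). It read 7.60 in HT replicate 1 and 9.52 to 9.83 in the other HT fish, against 9.90 in LT replicate 2 and 8.12 to 9.08 in the other LT fish. Hsp47 was thus high in the same 5 fish as anti-Müllerian hormone, and lowest where hsp10 was highest. The chaperonin subunits, described as T-complex protein 1 subunit alpha, tcp1 protein and tcp1-beta, were at -0.11, -0.08 and -0.16, the first of them well above background in 6 of the 10 fish. Of 5 proteasome and ubiquitin sequences, 3 were lower and 2 higher, and 1 was lower at an unadjusted limma p below 0.05, a proteasome alpha subunit (CUST_7994) at -0.52 (adjusted p = 0.176 from limma), and at -0.22 over 10 fish (adjusted p = 0.971 from limma). Over 10 fish none of the 7 folding and none of the 5 proteasome and ubiquitin sequences was at an unadjusted limma p below 0.05. That subunit was 13.71 in HT replicate 1 and 12.04 to 12.32 in the other HT fish, against 12.31 to 13.04 in LT fish. HT replicate 1 was the highest of the 10 fish for 4 of these 5 sequences, against the 26.9% of all probes.

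A few markers of muscle and of the gonad differed between the groups over 9 fish before adjustment. Of 7 muscle sequences, 2 were higher and 1 lower in HT gonads over 9 fish at an unadjusted limma p below 0.05, against the 10.8% and 7.61% of all probes. The largest difference was that of slow myosin heavy chain 3 (CUST_20632), which read 7.10, 9.21, 9.31, 8.72 and 9.04 in HT replicates 1 to 5, against 6.79, 8.58, 6.52, 6.81 and 6.86 in LT replicates 1 to 5. It was thus high in the same 5 fish as anti-Müllerian hormone and hsp47, with a log2 fold change of 1.96 over 9 fish (adjusted p = 0.109 from limma) and 1.57 over 10 fish (adjusted p = 0.603 from limma). The others were skeletal muscle myosin heavy chain (CUST_12705) at 0.32 and obscurin (CUST_21015) at -0.27 over 9 fish, each well above background in only 4 of the 10 fish. The summed intensity of the 7 was 974 to 1752 in HT fish and 944 to 1533 in LT fish, and their median log2 fold change over 9 fish was 0.08. Of the 7, 2 were well above background in all 10 fish, myosin heavy chain (CUST_21289) at 0.08 and gamma sarcoglycan (CUST_21007) at 0.03 over 9 fish.

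Of 5 pancreas and gut sequences, 4 were well above background in all fish, and their summed intensity was 688 to 906 in HT fish and 795 to 1483 in LT fish. Over 9 fish, where 49.6% of all probes were lower in HT gonads, all 5 were lower, by 0.15 to 0.39 on the log2 scale. None of the 5 was at an unadjusted limma p below 0.05. Over 10 fish 1 of them was, carboxypeptidase A1 (CUST_672) at -0.38, against the 2.96% of all probes. Of 4 gonad sequences, 1 was well above background in all 10 fish, anti-Müllerian hormone (CUST_20078). Over 9 fish 2 were higher in HT gonads at an unadjusted limma p below 0.05, against 10.8% of all probes. They were CUST_20078 at 3.58 (adjusted p = 0.166 from limma) and dmrt 1 (CUST_10632) at 1.29 (adjusted p = 0.169 from limma). A second anti-Müllerian hormone sequence (CUST_1012) and SOX-8 (CUST_17178) were at 0.05 and 0.03. Over 10 fish 1 of the 4 was higher at that level, dmrt 1 at 1.00, against 4.12% of all probes. The part of these tissues in the hsp10 and hsp90 beta values was not tested. In HT replicate 1, where hsp10 was highest, the summed intensity was 974 for the muscle and 816 for the pancreas and gut sequences. HT replicate 4, the lowest fish for all 6 listed probes, had the highest muscle sum, 1752. Its myosin light chain 1 (CUST_1252) was at 8.96, against 6.55 to 7.55 in the other fish. Whether this has a part in the low extremes of HT replicate 4 was not tested.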

How the data were processed

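The scanner files of 10 one-colour Agilent arrays were used. The authors extracted the spots with Agilent Feature Extraction and deposited median foreground and background intensities per spot without normalization, 43803 non-control spots per array. The authors also deposited a table of log2 values for 21701 probes, normalized by them, which served as an alternative here. Its columns correlated with the values computed here for the same array at 0.9985 to 0.9996. The file headers name another array design, scanner and software version than the methods.

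Background was corrected with normexp (offset 50), spots were quantile normalized over the 10 arrays, log2 values of a probe's spots were averaged without flagged spots unless all were flagged, and limma 3.58.1 in R 4.3.3 (lmFit, eBayes) compared the groups over 24200 probes with Benjamini-Hochberg adjustment. For single values a two-sided exact permutation test was used, and for correlations 100000 permutations, or every permutation over 9 fish. The fit and the tests were tested on simulated data. Genes named are the members, 3 lists of related genes and 3 lists of tissue markers, each sequence by its brightest probe, and the 3 described sequences most correlated with each member. The members and lists were chosen with earlier results of these data known. A spot was reliable when its foreground was at least 2 times its background and it was neither saturated nor flagged, and a probe was reliable in a fish when at least as many of its spots passed as failed. Alternatives were other background, scaling, filter, weighting and variance settings, the replicate block, and each fish left out in turn.

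The replicate number marks the slide, per the file headers. As deviations from the group mean, the HT and the LT array correlated at 0.374, 0.488, 0.0802, -0.233 and 0.188 on slides 1 to 5. The slide holds both groups, and a fit with it as a replicate block was run as an alternative.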

Additional observations from a re-analysis of the deposited data

Results flagged for a closer look

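Within each group of 5 fish, the gap of the highest or lowest fish to its nearest neighbour was compared with the group's whole range for the 17 probes, 34 groups in all. In 3 groups 1 fish lay far from the others (ratio above 0.71), where chance flags about 1 group in 20. HT replicate 1 was at 13.76 in hsp10 CUST_6344, with the next HT fish at 12.56 (ratio 0.814), and at 13.81 in hsp10 CUST_6343, with the next at 12.42 (ratio 0.778). LT replicate 5 was at 11.23 in hsp90 beta CUST_18041, with the next LT fish at 11.84 (ratio 0.848), and its 2 spots for that probe differed by 1.52 log2 units. These probes are not independent of each other within a sequence, and what sets the fish apart was not tested.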

How the results depend on the processing

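Of 640 recomputations of the fold changes of the 17 probes, 582 kept their direction and their side of the threshold, 52 changed sign without being called in either form, and 6, all with array weights, passed the threshold. The 582 include settings that could change a member's adjusted p but not its fold change. These were the variance setting, the test of reliable probes only and the keeping of flagged spots. The cause of the sign changes was not tested. Probes called over 9 fish, 0 in the reported fit, numbered 2445 on processed signals scaled by the 75th percentile (2366 higher, 79 lower), 1747 with that scaling after normexp (1633 higher, 114 lower) and 3045 with array weights. Over all 10 fish (0 in the reported fit) they numbered 1, 540 and 2029. With 1 fish left out the counts ran from 0 to 710 over 9 fish and from 0 to 66 over 10, the highest in both without LT replicate 2. No member was among the probes that scaling added. Under these scalings the array's median fold change was 0.30 and 0.40 over 9 fish.

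Over 9 fish the signs turned as follows. On the scaled processed signals, hsc70 CUST_2420, CUST_2419 and CUST_2421 were at 0.388, 0.460 and 0.404, hsc71 CUST_17674 and CUST_17675 at -0.0084 and -0.0121, and hsp90 beta CUST_18041 at -0.0066. With the scaling after normexp the same probes were at 0.0829, 0.149, 0.175, -0.126, -0.0451 and -0.159, and with cyclic loess CUST_17674 was at -0.0145. Both scalings move the whole array up: relative to the median of the array, the 3 hsc70 probes were at 0.088, 0.159 and 0.104 on the scaled processed signals and at -0.318, -0.252 and -0.227 with the scaling after normexp, the last 3 on the same side as in the reported fit. Hsp70 binding protein CUST_5654 was at 0.0851 with array weights. With the replicate block it was at 0.0082, and the block changed no call, with 0 probes called over 9 or 10 fish and with hsp10 CUST_6344 at -0.45 (adjusted p = 0.340 from limma). Over 9 fish LT replicate 1 had no partner on its slide, so that the block gave the same fold changes as leaving that fish out.

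Over 10 fish, hsc70 was at 0.201 (CUST_2420), 0.242 (CUST_2419) and 0.155 (CUST_2421) on the scaled processed signals, and at 0.0322, 0.119 and 0.0796 with cyclic loess. With the scaling after normexp the turned values were 0.0494 (CUST_2419), 0.0218 (CUST_2421), -0.0474 (CUST_17674), -0.0185 (CUST_18040), -0.116 (CUST_18041), -0.0827 (CUST_5653) and -0.0901 (CUST_5655), and with array weights -0.0961 (CUST_5653) and -0.0891 (CUST_5655).

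With 1 fish left out, ranges that crossed 0 over 9 fish were -0.195 to 0.362 (CUST_17674), -0.0684 to 0.485 (CUST_17675), -0.144 to 0.193 (CUST_18041), -0.264 to 0.0053 (CUST_5653) and -0.145 to 0.117 (CUST_5654). Over 10 fish they were -0.152 to 0.0015 (CUST_2420), -0.085 to 0.0504 (CUST_2419), -0.0425 to 0.426 (CUST_17674), -0.0215 to 0.461 (CUST_17675), -0.0875 to 0.188 (CUST_18041), -0.183 to 0.0013 (CUST_6345), -0.0062 to 0.281 (CUST_5653), -0.0117 to 0.270 (CUST_5655) and -0.172 to 0.0062 (CUST_7477).

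No pair of members passed after adjustment over 10 fish, and 1 did with the mean of all probes of a sequence, hsc70 with hsp10 at r = 0.881 (adjusted permutation p = 0.0289). Without 1 fish, 0 or 1 pair passed: without HT replicate 3 hsc70 with hsp10, and without LT replicate 3 hsp10 with hsp70 binding protein. Under the scaled processed signals, r of hsc70 turned to -0.278 with hsp10, -0.519 with hsp70 binding protein and -0.149 with heat shock factor binding protein 1, and with the scaling after normexp to -0.189 and -0.450 for hsp10 and hsp70 binding protein. With 1 fish left out, heat shock factor binding protein 1 ranged from -0.426 to 0.596 with hsc70, from -0.565 to 0.518 with hsp90 beta, from -0.208 to 0.457 with hsp10 and from -0.115 to 0.724 with hsp70 binding protein, and hsp90 beta from -0.0477 to 0.425 with hsp10 and from -0.110 to 0.405 with hsp70 binding protein, all lowest without HT replicate 4. The 12 pairs of probes with the same sequence that passed did so as well in the 6 alternatives run for them (other background, scaling and normalization, the deposited table, and no HT replicate 1).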
